A study of Mus musculus with 6 samples.

Results

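Airway secretory and goblet cell genes are the 10 genes Scgb1a1, Scgb3a1, Scgb3a2, Bpifa1, Bpifb1, Ltf, Clca1, Muc5ac, Muc5b and Epcam, out of 56748 genes in a count table of mouse aorta. They were picked by symbol because their transcripts were abundant in 1 of the 6 libraries, sST2-KO replicate 2, and low in the others, so their levels in that library are given as a description with no test. The 2 groups were 3 sST2-KO libraries and 3 WT libraries, from littermates that were 6 months old. All 6 mice, controls included, were labelled Apoe-deficient and had received angiotensin II from an osmotic minipump for 28 days, a standard way to provoke aortic disease. sST2 is the soluble isoform of the interleukin-33 receptor, made from Il1rl1. How it was removed is not given in the sources used here, and the WT mice are wild type for sST2 alone. The series design gives 3 mice a group, but no label ties a library to 1 mouse, so p-values measure the spread between these libraries.

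Conducting airways are lined by club cells, goblet cells, ciliated cells and basal cells. Club cells secrete secretoglobins and other small defence proteins, and goblet cells secrete the gel-forming mucins of mucus. Interleukin-13, which group 2 lymphocytes release in response to interleukin-33, turns club cells of mouse airways towards goblet cells and induces Clca1 and Muc5ac there. None of this is a known programme of the aortic wall, which is built of smooth muscle, endothelium and fibroblasts.

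The genes lie apart from each other except for 2 pairs. In the mm39 coordinates of the deposited table, Muc5ac (ENSMUSG00000037974, chr7:141342709-141372968, plus strand) and Muc5b (ENSMUSG00000066108, chr7:141392807-141426821, plus strand) are 19838 bases apart. Bpifa1 (ENSMUSG00000027483, chr2:153984800-153991139, plus strand) and Bpifb1 (ENSMUSG00000027485, chr2:154032738-154062289, plus strand) are 41598 bases apart. The others are Scgb1a1 (ENSMUSG00000024653, chr19:9061000-9065322, minus strand), Scgb3a1 (ENSMUSG00000064057, chr11:49554437-49555945, plus strand), Scgb3a2 (ENSMUSG00000038791), Clca1 (ENSMUSG00000028255, chr3:144709578-144738537, minus strand), Ltf (ENSMUSG00000032496, chr9:110848339-110871835, plus strand) and Epcam (ENSMUSG00000045394, chr17:87943407-87958557, plus strand). No other gene of the table overlapped any of the 10.

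Promoters are shown for 3 of the abundant secretory genes and for Epcam, the only general epithelial gene among the 10, because these genes were high together in 1 library. RefSeq sequences in GRCm38.p6 covered 250 bases before to 50 after the start for 5 of the 10 genes. Capitals mark matches, on either strand, to a TATA box (TATAAA) or a GC box (GGGCGG). A forkhead motif (TGTTTAC) and a STAT motif (TTC, any 4 bases, GAA) were also searched and matched in none of the 4 windows.
Bpifa1 (chr2:154142630-154142929, plus strand): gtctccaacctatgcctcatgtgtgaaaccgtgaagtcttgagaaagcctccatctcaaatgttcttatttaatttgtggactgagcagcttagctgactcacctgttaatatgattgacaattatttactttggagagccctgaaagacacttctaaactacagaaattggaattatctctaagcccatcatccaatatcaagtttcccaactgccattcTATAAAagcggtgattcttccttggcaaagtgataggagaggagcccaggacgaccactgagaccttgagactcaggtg
Bpifb1 (chr2:154190568-154190867, plus strand): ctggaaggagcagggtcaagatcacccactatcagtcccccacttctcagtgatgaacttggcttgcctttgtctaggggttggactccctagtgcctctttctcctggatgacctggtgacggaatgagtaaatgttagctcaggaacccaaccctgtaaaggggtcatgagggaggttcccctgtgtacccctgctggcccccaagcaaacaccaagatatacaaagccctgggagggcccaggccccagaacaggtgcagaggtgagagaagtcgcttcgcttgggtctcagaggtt
Scgb3a1 (chr11:49663345-49663644, plus strand): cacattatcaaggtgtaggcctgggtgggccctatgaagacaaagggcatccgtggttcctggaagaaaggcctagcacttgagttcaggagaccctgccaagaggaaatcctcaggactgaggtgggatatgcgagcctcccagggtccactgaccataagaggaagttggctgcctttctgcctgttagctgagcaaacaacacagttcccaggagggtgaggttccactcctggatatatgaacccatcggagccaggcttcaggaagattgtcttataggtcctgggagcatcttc
Epcam (chr17:87635729-87636028, plus strand): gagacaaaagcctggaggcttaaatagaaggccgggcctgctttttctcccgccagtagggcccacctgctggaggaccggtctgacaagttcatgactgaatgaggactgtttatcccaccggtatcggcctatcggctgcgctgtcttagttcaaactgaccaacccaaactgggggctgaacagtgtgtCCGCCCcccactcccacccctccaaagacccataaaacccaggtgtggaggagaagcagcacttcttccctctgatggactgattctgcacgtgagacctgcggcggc
The window of Bpifa1 held a TATA box at position -29 from the start, and that of Epcam held a GC box at position -58, on the minus strand. Of all 32851 promoter windows of this length, 13.62% held the TATA box, 35.66% the GC box, 3.65% the forkhead motif and 6.953% the STAT motif. GC content was 42.33% for Bpifa1, 55.33% for Bpifb1, 53.33% for Scgb3a1 and 57.0% for Epcam, against a median of 52.67%. The 4 windows thus shared none of the motifs searched.

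The libraries held 15615658 to 17988552 counts each. Levels below are in TMM-normalized CPM, which puts all libraries on 1 scale of sequencing depth, and a count of 0 allows up to 0.146 to 0.232 CPM, the level of 3 counts. Besides sST2-KO replicate 2, WT replicate 3 stood apart through liver transcripts, with 6178 CPM of Alb against 0.537 to 3.71 CPM elsewhere. WT replicate 2 stood apart through mitochondrially encoded genes, which took 37.76% of its counts against 7.084% in sST2-KO replicate 2 and 18.4 to 23.7% in the other 4. Intervals and floors cover counting error only.

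In sST2-KO replicate 2 the 10 genes took 978949 of 17785126 counts, or 5.504% (95% exact Clopper-Pearson interval 5.494 to 5.515). In the other 5 libraries they took 41 to 639 counts in all. Their summed level was 8.82, 47780 and 5.10 CPM in sST2-KO replicates 1 to 3, against 2.27, 38.6 and 37.9 CPM in WT replicates 1 to 3. The high value was in 1 of 3 sST2-KO libraries, and the other 2 of that group lay between the lowest and the highest WT library. A gene counts here as peculiar to 1 library if its log2(CPM + 1) was over 2 above that of every other library. A gene at a very low level cannot meet this rule, even with all its counts in 1 library. By that rule 909 of 30169 counted genes, or 3.01%, were peculiar to sST2-KO replicate 2, and all 10 genes were among them, as their choice required. These 909 genes took 13.42% of its counts, of which the 10 genes made up 41.01%.

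Secretoglobins are small proteins that club cells release into airway fluid. Scgb1a1, the classical club cell secretory protein, had 1.07, 12430 and 1.19 CPM in sST2-KO replicates 1 to 3, against 0.276, 7.64 and 4.04 CPM in WT replicates 1 to 3. Scgb3a1 had 0.955, 4734 and 0.729 CPM in sST2-KO, against 0.276, 2.86 and 0.831 CPM in WT. Scgb3a2 had 0, 1531 and 0.331 CPM in sST2-KO, against 0, 0.695 and 0.890 CPM in WT. All 3 were highest in sST2-KO replicate 2, by 1626-fold, 1657-fold and 1719-fold over the next library, which was always a WT library. Outside that library the groups overlapped for each of the 3. The table holds 69 genes of the Scgb family, of which 5 had any count and these 3 alone exceeded 1 CPM in any library.

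BPI-fold proteins are lipid-binding defence proteins of the upper airways. Bpifa1, known as SPLUNC1, had 1.01, 15630 and 2.32 CPM in sST2-KO replicates 1 to 3, against 0.387, 20.5 and 7.48 CPM in WT replicates 1 to 3. Bpifb1, known as LPLUNC1, had 0.393, 3590 and 0 CPM in sST2-KO, against 0.497, 4.48 and 1.37 CPM in WT. Both BPI-fold genes had their next highest level in WT replicate 2. Of 14 Bpif genes, 9 had a count. Beside these 2, Bpifb5 reached 6.35 CPM in sST2-KO replicate 2, against at most 0.0594 CPM in any other library, and Bpifa3 reached 2.20 CPM there with no count elsewhere. Bpifa2, the salivary member of the family, had no count in sST2-KO replicate 2.

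Lactoferrin, the iron-binding antimicrobial protein encoded by Ltf, is made both by airway glands and, in neutrophil precursors, as a granule protein. Ltf had 3.54, 2046 and 0.0662 CPM in sST2-KO replicates 1 to 3, against 0.111, 1.47 and 22.3 CPM in WT replicates 1 to 3. It was 91.7-fold higher in sST2-KO replicate 2 than in the next library, WT replicate 3, the smallest such ratio among the 10 genes.

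Of the 10 genes, Clca1 and Muc5ac had the fewest counts outside sST2-KO replicate 2. Clca1, a secreted regulator of calcium-activated chloride channels and a goblet cell marker, had 0, 99521 and 0 counts in sST2-KO replicates 1 to 3, against 0, 0 and 1 count in WT replicates 1 to 3. The level in sST2-KO replicate 2 was 4858 CPM, and the single count in WT replicate 3 was 0.00122% of it (95% exact interval 3.1e-05 to 0.00681%). Muc5ac, the gel-forming mucin of surface goblet cells, had 13608 counts or 664 CPM in sST2-KO replicate 2 and 0 counts in the other 5 libraries. That level was at least 2868-fold higher than the floor of 3 counts per library. Its neighbour Muc5b, a gel-forming mucin that club cells and submucosal glands make in healthy airways, had 1.63, 2179 and 0.397 CPM in sST2-KO, against 0.0553, 0.849 and 0.297 CPM in WT. Unlike Muc5ac, Muc5b had counts in all 6 libraries, and its next highest library was sST2-KO replicate 1 with 29 counts.

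Related chloride channel regulators and mucins ranged from genes counted in sST2-KO replicate 2 alone to genes of all libraries. Clca3b had 41.9 CPM in sST2-KO replicate 2 and no count elsewhere. Clca3a1 had 27.4, 31.9 and 18.6 CPM in sST2-KO replicates 1 to 3, against 43.1, 29.1 and 34.6 CPM in WT replicates 1 to 3, so sST2-KO replicate 2 was inside the range of the others. Clca3a2 was counted in every library and was higher there, with 12.8 CPM against 2.19 to 4.09 CPM. Clca2 had 2.49 CPM there against 0.387 to 1.97 CPM. Of the transmembrane mucins, Muc1 had 205 CPM, Muc4 134 CPM and Muc20 18.4 CPM in sST2-KO replicate 2, against at most 3.76, 0.221 and 0.276 CPM elsewhere. Muc16 had 109 CPM there and 27.8 CPM in WT replicate 1, where the others had 2.30 to 16.6 CPM. Muc2, the intestinal gel-forming mucin, stayed between 0.899 and 3.17 CPM in all 6 libraries. Muc13 had 1.07 CPM in sST2-KO replicate 2 and up to 0.9498 CPM in the others, and Muc3a 0.732 CPM against 0.497 to 1.70 CPM.

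Epcam, an adhesion molecule of most epithelia, had 0.225, 126 and 0.0662 CPM in sST2-KO replicates 1 to 3, against 0.663, 0.154 and 0.653 CPM in WT replicates 1 to 3. It was the lowest of the 10 in sST2-KO replicate 2 per length and the only 1 that is not secreted.

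**Figure D1:**
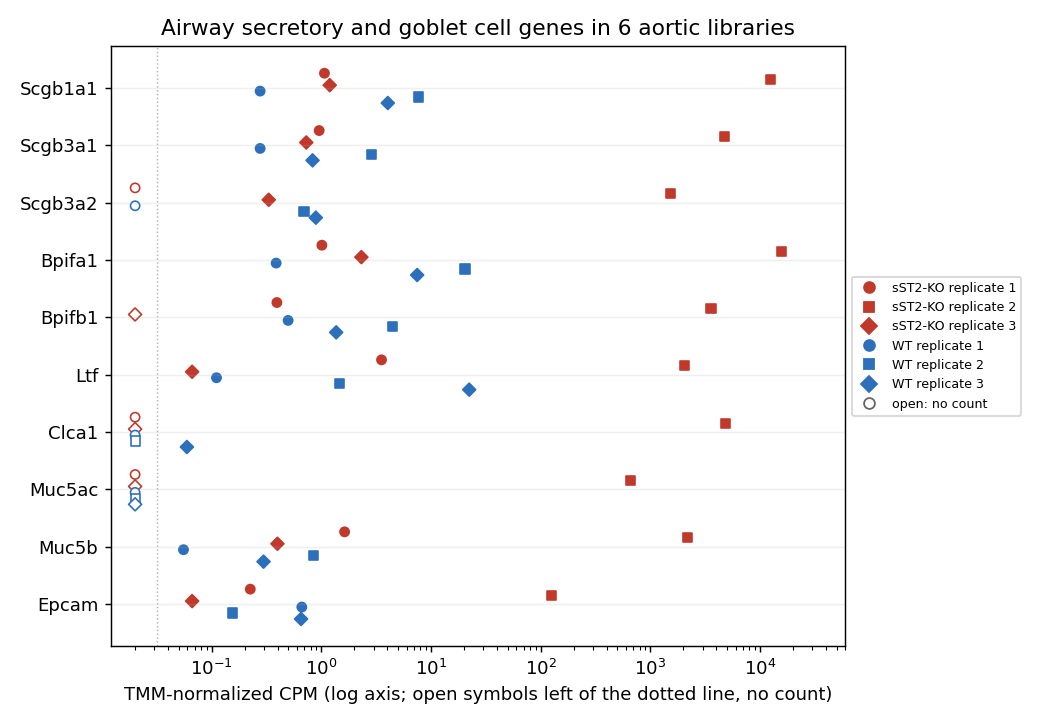
Level of each of the 10 genes (TMM-normalized CPM, log axis) in the 3 sST2-KO libraries (red) and the 3 WT libraries (blue), 1 symbol per library, with open symbols at the left for a count of 0. sST2-KO replicate 2 lies between 126 and 15630 CPM for every gene, while the other 5 libraries lie at or under 22.3 CPM and both groups mix there.

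Levels of the 10 genes were set against each other per length, as FPKM, the CPM divided by the deposited gene length in kilobases. In sST2-KO replicate 2, Scgb1a1 had 26110 FPKM, Bpifa1 10120 and Scgb3a1 7917. Scgb3a2 followed with 1739 FPKM, Clca1 with 1286, Bpifb1 with 993 and Ltf with 593. The mucins, whose transcripts are long, had 146 FPKM for Muc5b and 61.8 for Muc5ac, close to the 57.3 FPKM of Epcam. The short secretoglobins and Bpifa1 thus led per length.

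The small amounts in the other libraries kept some proportions of sST2-KO replicate 2 and not others. WT replicates 2 and 3, with the most counts of these genes, give the narrowest intervals. The ratio of Bpifb1 to Bpifa1 counts was 0.230 in sST2-KO replicate 2, against 0.219 (95% exact interval 0.162 to 0.292) in WT replicate 2 and 0.183 (0.112 to 0.286) in WT replicate 3. The ratio of Scgb3a1 to Scgb1a1 was 0.381 in sST2-KO replicate 2, against 0.374 (0.249 to 0.550) in WT replicate 2 and 0.206 (0.107 to 0.370) in WT replicate 3. Within each protein family, then, WT replicate 2 matched sST2-KO replicate 2 within counting error, and WT replicate 3 did so for the BPI-fold pair but not for the secretoglobin pair. The other libraries had few counts. Bpifb1 to Bpifa1 was 0 (upper limit 0.111) in sST2-KO replicate 3 and 1.29 (0.426 to 4.06) in WT replicate 1. Scgb3a1 to Scgb1a1 was 0.895 (0.437 to 1.82) in sST2-KO replicate 1. These 3 intervals leave out the ratio of sST2-KO replicate 2. The interval of Bpifb1 to Bpifa1 in sST2-KO replicate 1 (0.137 to 0.976) held it. So did those of Scgb3a1 to Scgb1a1 in sST2-KO replicate 3 (0.261 to 1.37) and WT replicate 1 (0.230 to 4.35).

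Across families some proportions differed. Scgb1a1 to Bpifa1 was 0.795 in sST2-KO replicate 2, against 0.374 (0.294 to 0.472) in WT replicate 2 and 0.540 (0.396 to 0.731) in WT replicate 3. In sST2-KO replicates 1 and 3 and WT replicate 1 its intervals, on 5 to 19 Scgb1a1 counts, held 0.795. Cyp2a5 to Bpifa1 was 0.139 in sST2-KO replicate 2 and Wfdc2 to Bpifa1 was 0.0933. In WT replicate 3 they were 0.151 (0.0879 to 0.245) and 0.0952 (0.0479 to 0.172), both within counting error. In WT replicate 2 they were lower, 0.0528 (0.0285 to 0.0902) and 0.0491 (0.0258 to 0.0854). In sST2-KO replicates 1 and 3 and WT replicate 1 the Cyp2a5 intervals held 0.139. Wfdc2 was higher there, at 0.667 (0.293 to 1.46), 0.429 (0.218 to 0.805) and 1.43 (0.491 to 4.42). Clca1 to Bpifa1 was 0.311 in sST2-KO replicate 2, against 0 to 265 counts (upper limit 0.0140) in WT replicate 2. At the ratio of sST2-KO replicate 2, the 265 Bpifa1 counts of WT replicate 2 would have come with 82.4 Clca1 counts, where 0 were counted, and the 126 of WT replicate 3 with 39.2, where 1 was counted. Chil4, a chitinase-like protein, behaved likewise, with 39905 counts in sST2-KO replicate 2 and 0 counts in WT replicate 2, where 33.0 would have kept the ratio. Muc5ac would have had 11.3 counts in WT replicate 2 at its ratio to Bpifa1, and 0 were counted. Reg3g, an antibacterial lectin of club cells, was at 0.360 of Bpifa1 in sST2-KO replicate 2 and at 0.0302 (0.0129 to 0.0604) in WT replicate 2. For WT replicates 2 and 3, Muc5b to Bpifa1 was 0.0415 (0.0205 to 0.0755) and 0.0397 (0.0127 to 0.0951), against 0.140 in sST2-KO replicate 2. In the same order Scgb3a1 to Bpifa1 was 0.140 (0.0962 to 0.1975) and 0.111 (0.059 to 0.193), against 0.303. Muc5ac to Muc5b was 0 in both, with upper limits of 0.398 and 1.09 that hold the 0.305 of sST2-KO replicate 2. Relative to Bpifa1, WT replicates 2 and 3 thus fell short of sST2-KO replicate 2 in Clca1, Muc5ac, Muc5b, Scgb1a1 and Scgb3a1. The source of these counts was not tested.

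**Figure D2:**
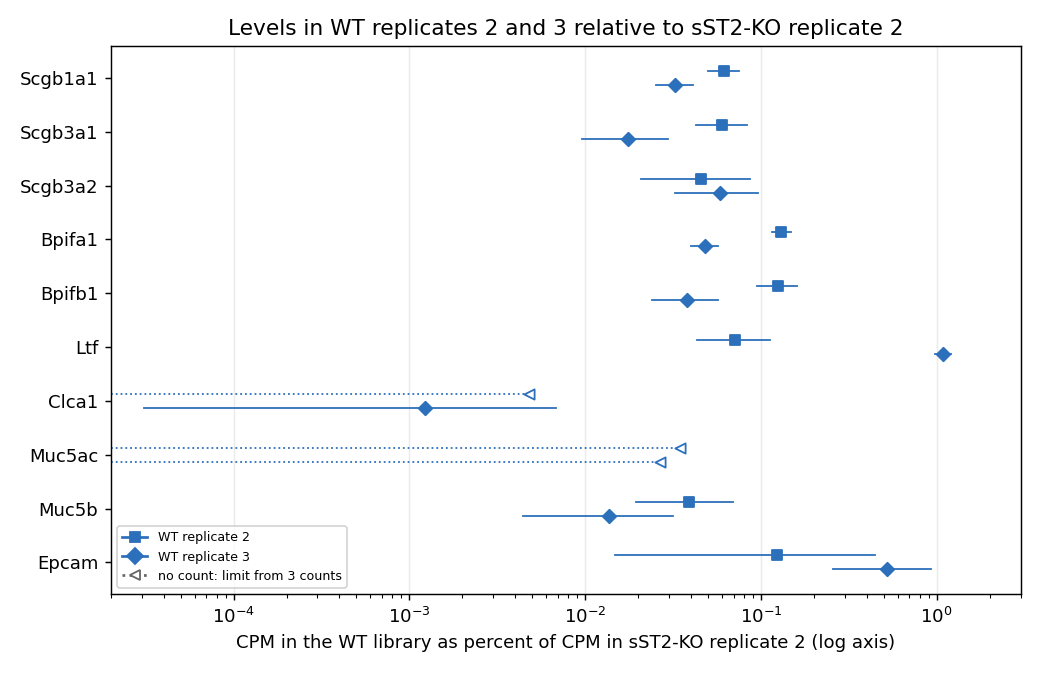
Level of each of the 10 genes in WT replicate 2 (squares) and WT replicate 3 (diamonds) as a percent of its level in sST2-KO replicate 2 (log axis), with 95% exact intervals; open triangles are limits for a count of 0. Secretoglobins, BPI-fold genes and Muc5b lie between 0.0136% and 0.131%, Clca1 lies at or below 0.00477%, and Ltf in WT replicate 3 reaches 1.09%.

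The 2 sST2-KO libraries that did not choose the genes were compared with the 3 WT libraries to ask whether these traces differed with genotype. Of the 10 genes, 7 passed the filter on low counts, and Scgb3a2, Clca1 and Muc5ac did not. The edgeR quasi-likelihood test called 0 of the 7 higher and 0 lower, where it called 0.0% of 16844 tested genes higher and 0.00594%, a single gene (Gm45104), lower. At an unadjusted p under 0.05 it held 6.38% of tested genes higher and 6.38% lower, and 0 of the 7. Bpifb1 had the lowest p of the 7. It averaged 0.197 ± 0.278 CPM in sST2-KO (SD, n = 2) and 2.11 ± 2.09 CPM in WT (SD, n = 3), which gave a log2 change of -3.31 with SE 1.40 (edgeR, adjusted p = 0.393). It was the only 1 of the 7 whose groups did not overlap, lower in sST2-KO, as was so for 17.4% of tested genes.

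Bpifa1 averaged 1.66 ± 0.924 CPM in sST2-KO (SD, n = 2) and 9.44 ± 10.2 CPM in WT (SD, n = 3), with log2 change -2.51, SE 1.33 and an edgeR adjusted p of 0.467. Scgb1a1 averaged 1.13 ± 0.0885 CPM in sST2-KO and 3.99 ± 3.68 CPM in WT, with log2 change -1.81, SE 1.13 and an edgeR adjusted p of 0.524. For both, WT replicate 1 lay below both sST2-KO libraries, and WT replicates 2 and 3 lay above them. Scgb3a1 had a log2 change of -0.63 (SE 0.99), Epcam of -1.69 (SE 1.09) and Ltf of -2.11 (SE 1.91), with edgeR adjusted p of 0.809, 0.533 and 0.656. Muc5b was the only 1 with a positive log2 change, 1.38 with SE 1.12 (edgeR, adjusted p = 0.618), which was 0.025 without sST2-KO replicate 1. The median log2 change of the 7 was -1.81, against -0.021 over all tested genes, and 6 of the 7 were negative, as were 51.6% of all tested genes. DESeq2 called 181 genes higher (1.24%) and 258 lower (1.77%), and limma-voom called 0 and 0. DESeq2 gave an adjusted p for 4 of the 7, from 0.148 for Bpifb1 to 0.722 for Ltf. The direction of Scgb3a1 turned positive without WT replicate 2 (0.62), and that of Ltf without WT replicate 3 (1.22). Without WT replicate 2 the log2 change was -0.92 for Scgb1a1 and -1.24 for Bpifa1. In bulk RNA, fewer cells of a type and less RNA per cell cannot be told apart.

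With all 6 libraries the genotype comparison of the 10 genes rested on 1 library and is described without a test. Scgb1a1 averaged 4143 ± 7175 CPM in sST2-KO and 3.99 ± 3.68 CPM in WT (SD, n = 3 each). Bpifa1 averaged 5211 ± 9022 CPM in sST2-KO and 9.44 ± 10.2 CPM in WT, and Clca1 1619 ± 2805 CPM in sST2-KO and 0.0198 ± 0.0343 CPM in WT. The SD exceeded the mean in sST2-KO for these 3, and the groups overlapped for all 10. Over the whole table this comparison called 0.0% of 16377 tested genes higher and 0.0% lower in edgeR. The unadjusted p was under 0.05 for 832 higher (5.08%) and 974 lower genes (5.95%). DESeq2 called 59 higher (0.406%) and 232 lower (1.6%), and limma-voom called 0 and 0.

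Outside sST2-KO replicate 2 the 10 genes did not share 1 order of libraries. Muc5b was highest in sST2-KO replicate 1, with 29 counts beside 18 of Bpifa1 (ratio 1.61, 0.865 to 3.08, against 0.140 in sST2-KO replicate 2), and Epcam in WT replicate 1. Ltf, Scgb3a2 and Clca1 were highest in WT replicate 3. The lead over the next library was within counting error for Epcam (12 counts, against 11 in WT replicate 3) and Scgb3a2 (15 counts, against 9 in WT replicate 2). For Clca1 it rested on 1 count. In sST2-KO replicate 1 Ltf had 63 counts beside 18 of Bpifa1, and in WT replicate 3 it had 376 beside 126. In those 2 libraries it went with Ngp, a secondary granule protein of neutrophil precursors. Ngp to Ltf was 1.54 (95% exact interval 1.11 to 2.15) in sST2-KO replicate 1 and 1.545 (1.36 to 1.76) in WT replicate 3. It did not in WT replicate 2, with 0 Ngp counts beside 19 of Ltf (upper limit 0.214), and WT replicate 1 and sST2-KO replicate 3 had only 2 and 1 Ltf counts. In sST2-KO replicate 2 there was 1 Ngp count beside 41913 Ltf counts. Camp, another granule protein, had 1.91, 0.244 and 0 CPM in sST2-KO replicates 1 to 3, against 0.221, 0 and 9.74 CPM in WT replicates 1 to 3. The azurophilic granule genes Mpo and Elane had 0 and 0.0488 CPM in sST2-KO replicate 2. Its S100a8 and S100a9, abundant cytosolic proteins of neutrophils, were at 3.91 and 4.83 CPM, against 2.32 to 39.7 and 3.91 to 59.8 CPM in the others. Of the 18 neutrophil genes only Ltf and Cd177 were peculiar to sST2-KO replicate 2. Cd177, a surface protein of neutrophils, was at 294 CPM in this library, against at most 2.97 CPM in the others, and the neutrophil marker Ly6g had no count there.

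Lcn2, an iron-sequestering protein of neutrophils and of airway epithelium, had 21.2, 64.1 and 17.8 CPM in sST2-KO replicates 1 to 3, against 110, 66.9 and 107 CPM in WT replicates 1 to 3. It separated the groups without overlap, with or without sST2-KO replicate 2. The fit without that library gave -2.29 with SE 0.28 on the log2 scale. DESeq2 called it (adjusted p = 2.13e-10), and edgeR (adjusted p = 0.194) and limma-voom (adjusted p = 0.282) did not. Over its 13 alternatives the adjusted p ran up to 0.858. In the same fit log2 changes were negative for 15 of 16 tested neutrophil genes. Their median was -1.30, and edgeR called 0 of them. Ngp (-2.02), Camp (-1.76), Cd177 (-2.15), Elane (-1.66), Prtn3 (-1.48), Padi4 (-1.30), S100a9 (-1.29), S100a8 (-1.26), Retnlg (-1.01), Mmp8 (-0.94), Csf3r (-0.91), Chil3 (-0.77) and Cxcr2 (-0.36) were negative and Mmp9 (0.49) positive. WT replicate 3, the library with liver transcripts, was the highest of the 5 libraries of this fit in 14 of the 18 neutrophil genes, Ltf, Ngp, Camp, Mpo and Elane among them.

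**Figure D3:**
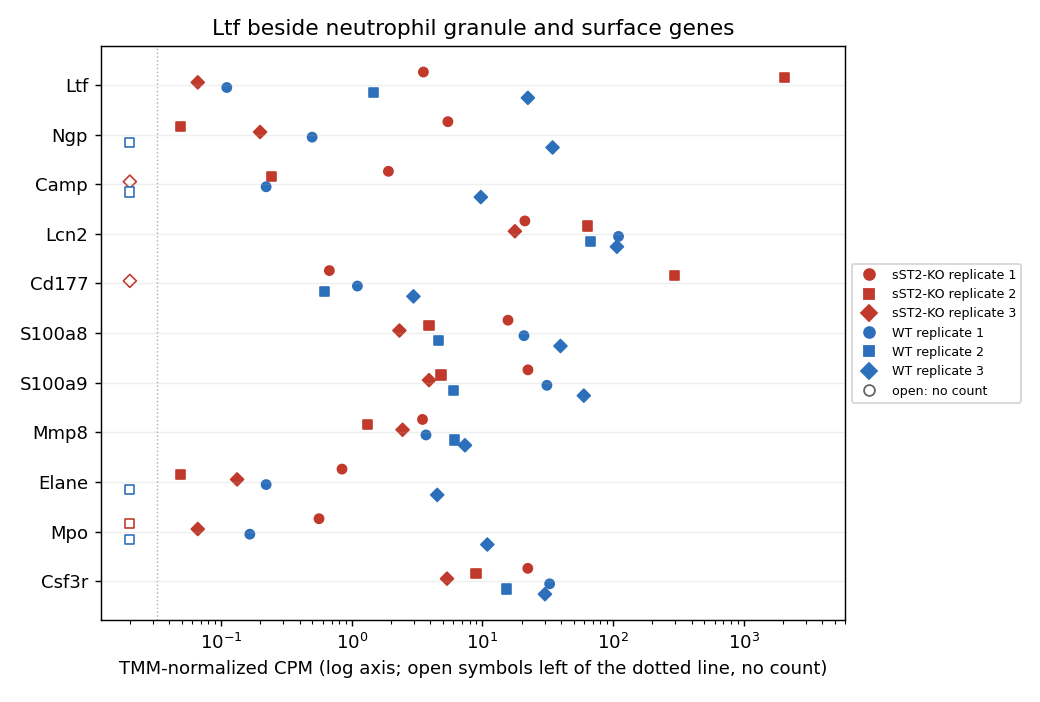
Level of Ltf and of 10 neutrophil genes (TMM-normalized CPM, log axis) in the 3 sST2-KO libraries (red) and the 3 WT libraries (blue), with open symbols at the left for a count of 0. In sST2-KO replicate 2 (red squares) Ltf is at 2046 CPM and Cd177 at 294 CPM, while Ngp, Camp, Elane and Mpo are at or under 0.244 CPM.

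Other airway genes were high in the same library. Of 14 further club cell genes, 11 were peculiar to sST2-KO replicate 2, and their summed level was 15670 CPM there, against 149 to 222 CPM in the other 5. Reg3g had 5623 CPM against at most 0.618 CPM elsewhere. Cbr2, a carbonyl reductase of lung, had 3840 CPM against 120 to 181 CPM, and Cyp2f2, a cytochrome P450 that club cells use on inhaled compounds, had 2871 CPM against 10.8 to 33.3 CPM. Cyp2a5, another cytochrome P450, had 2172 CPM against at most 1.13 CPM. Upk3a, a marker of a subset of club cells, had no count in sST2-KO replicate 2.

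Of 14 further goblet cell and mucus folding genes, 7 were peculiar to it, with a summed 1547 CPM against 24.4 to 48.2 CPM. Fcgbp, a mucus-binding protein, reached 727 CPM, against at most 0.119 CPM in the other 5. The trefoil peptide gene Tff2 had 327 CPM, Itln1, an intelectin, 162 CPM and Agr2, a disulfide isomerase needed for mucin folding, 152 CPM, against at most 0.0594, 0.166 and 0.225 CPM. Tff3, the trefoil peptide of intestinal goblet cells, had no count in sST2-KO replicate 2 and 9.14 CPM in WT replicate 3.

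Gland and secretory immunity genes were divided, with 4 of 16 peculiar to sST2-KO replicate 2. Wfdc2, a secreted whey acidic protein of airways, had 1458 CPM against 0.553 to 1.004 CPM, and Pigr, which carries IgA across epithelia, had 805 CPM against at most 0.594 CPM. Gp2 had 137 CPM against at most 0.309 CPM. Igha, the heavy chain of IgA, had 177 CPM, above the 37.5 to 132 CPM of the other libraries. Dcpp1, Dcpp2, Dcpp3, Pip, Muc19 and Bpifb2, which mark salivary or submucosal glands, had no count there.

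Markers of the other airway cells came with them. All 13 ciliated cell genes were peculiar to sST2-KO replicate 2, with a summed 1958 CPM against 72.8 to 95.6 CPM. Foxj1, the transcription factor of motile ciliated cells, reached 332 CPM, against at most 0.331 CPM in the other 5. Of 8 basal cell genes 7 were peculiar to it, and Krt14 was not. Chosen after its values were seen, Krt14 had 2.88 CPM there, against 0 to 7.13 CPM in the other 5. Krt15 had 269 CPM and Krt5 97.7 CPM, against at most 0.309 and 0.618 CPM. Of 20 genes of epithelia in general, 18 were, led by Krt19 with 395 CPM against at most 21.9 CPM. Of 11 airway and foregut transcription factors, 6 were: Nkx2-1, which specifies lung and thyroid, had 60.9 CPM and no count elsewhere, Sox2, which marks conducting airways, 88.9 CPM against at most 0.695 CPM, and Foxa1 121 CPM against at most 0.594 CPM. Pax8, the thyroid partner of Nkx2-1, had no count in any library.

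Markers of neighbouring tissues gave other values. The alveolar type 2 list had 2 of 9 genes peculiar to sST2-KO replicate 2, Sftpd and Sftpa1. Sftpd, which airway cells make too, had 111 CPM and Sftpa1 20.55 CPM, against at most 0.831 and 0.9498 CPM. The defining gene of the list, Sftpc, was not peculiar to it, with 8.54 CPM against at most 1.72 CPM. The alveolar type 1 list had 3 of 8, led by the water channel Aqp5 with 191 CPM against at most 1.05 CPM, and Cldn18 had no count. The thyroid and salivary lists had 0 genes each peculiar to it. Tg, the thyroglobulin gene, had 0.781 CPM in sST2-KO replicate 2, against 0.475 to 2.13 CPM elsewhere. The cartilage list had 0 of 11 genes peculiar to it, with 234 CPM summed against 196 to 371 CPM. Comp made up most of that sum in sST2-KO replicate 2, with 165.5 CPM. Col9a2, Snorc and Matn1, chosen after their values were seen, had 4.88, 2.20 and 1.12 CPM in that library. Elsewhere they had at most 1.01, 0.596 and 0.169 CPM. The remaining cartilage genes were inside or below the range of the other libraries. The hepatocyte list had 0 of 8, with Apoa1, Ttr, Serpina1a and Fgb at 0 in sST2-KO replicate 2.

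Genes of the aortic wall were measured in sST2-KO replicate 2 as well. The summed level of 12 smooth muscle and endothelial genes was 8811, 6985 and 13060 CPM in sST2-KO replicates 1 to 3, against 5400, 11510 and 6702 CPM in WT replicates 1 to 3. Acta2, smooth muscle actin, had 2893 CPM in sST2-KO replicate 2, inside the 1647 to 6558 CPM of the others, and Myh11, smooth muscle myosin, had 1681 CPM, inside 799 to 2450 CPM. These 2 genes made up most of the sum in sST2-KO replicate 2, and some other genes of the list were lower. Eln, which encodes elastin, had 1024 CPM there, below the 1571 to 2552 CPM of the other 5. Of the 5 endothelial genes, all chosen after their values were seen, 4 were below every other library. Pecam1 had 237 CPM against 321 to 602 CPM, Cdh5 78.8 against 135 to 315 CPM, Kdr 34.9 against 73.7 to 162 CPM and Tek 30.8 against 52.9 to 106 CPM. Vwf, with 188 CPM, was inside the 154 to 360 CPM of the others. The library thus held both airway transcripts and smooth muscle transcripts, and the tissue that the latter came from was not tested. In the comparison without that library, edgeR called 0 genes of any of these lists.

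**Figure D4:**
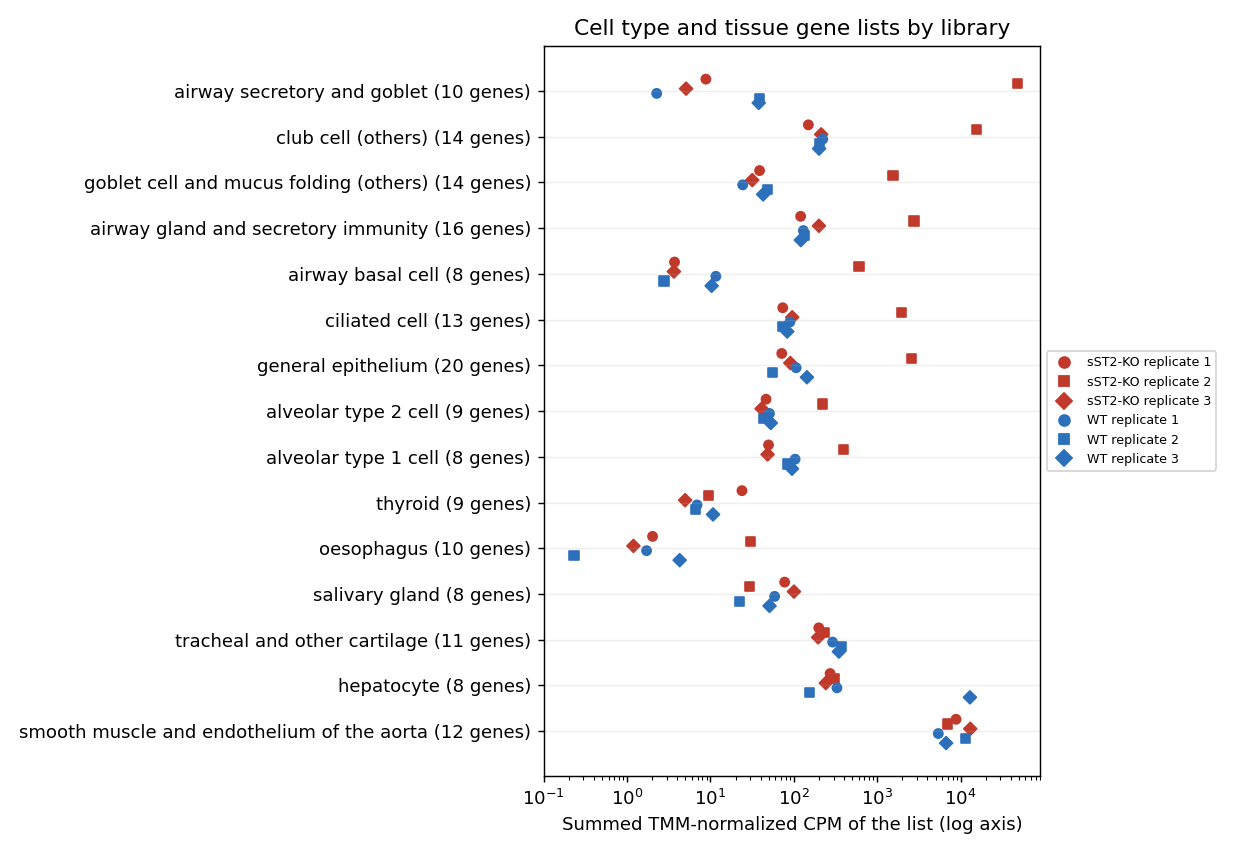
Summed level of each gene list (TMM-normalized CPM, log axis) in the 3 sST2-KO libraries (red) and the 3 WT libraries (blue). sST2-KO replicate 2 (red squares) is above every other library for the airway, general epithelial, alveolar and oesophagus lists, by 15670 against at most 222 CPM for club cells and 30.2 against at most 4.27 CPM for oesophagus, and inside the range of the others for thyroid, salivary gland, cartilage, hepatocyte and aortic wall lists.

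Clca1 and Muc5ac belong to a set of 16 genes known to respond to interleukin-13 in airways. Of these, 8 were peculiar to sST2-KO replicate 2, where 3.01% of all counted genes were. Among the airway cell lists above, this held for 4 of 16 gland and secretory immunity genes up to all 13 ciliated cell genes. The share of 8 of 16 thus does not set this list apart from other airway lists. Clca1 and Muc5ac were among the 8 as their choice required, and Fcgbp, Spdef, Agr2 and Itln1 also belong to the goblet cell list above. Chil4 had 1948 CPM there and 0 counts in the other 5 libraries, like Muc5ac, and Fcgbp had 727 CPM. Retnla, a resistin-like protein of macrophages and epithelia, had 680 CPM there, against 42.7 to 187 CPM elsewhere. Chosen after their values were seen, Spdef, the transcription factor of goblet cells, had 38.9 CPM against at most 0.695 CPM, and Alox15, an arachidonate lipoxygenase, 38.9 CPM against at most 0.927 CPM. Slc26a4, the anion exchanger pendrin, had 0.586 CPM there and 0 counts elsewhere, a level too low to meet the rule. Retnlb had 0.0488 CPM there and 0.111 CPM in WT replicate 1. Slc26a4 and Retnlb were also chosen after their values were seen and were not peculiar to that library. Genes that stromal cells make were not either. Postn, the matrix protein periostin, had 918, 561 and 1413 CPM in sST2-KO replicates 1 to 3, against 873, 2512 and 1151 CPM in WT replicates 1 to 3. Ccl11, the eosinophil chemoattractant eotaxin, had 15.2, 12.2 and 13.7 CPM in sST2-KO, against 22.7, 28.6 and 19.5 CPM in WT. Both were lowest in sST2-KO replicate 2 among the 6 libraries and were likewise chosen after their values were seen. In the fit without that library, 6 of the 16 genes were tested and 0 were called, 5 of them negative on the log2 scale, at a median of -0.54, against -0.021 over all tested genes. The high values were in 1 of 3 sST2-KO libraries: sST2-KO replicates 1 and 3 had 0 counts of Clca1, Muc5ac and Chil4.

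**Figure D5:**
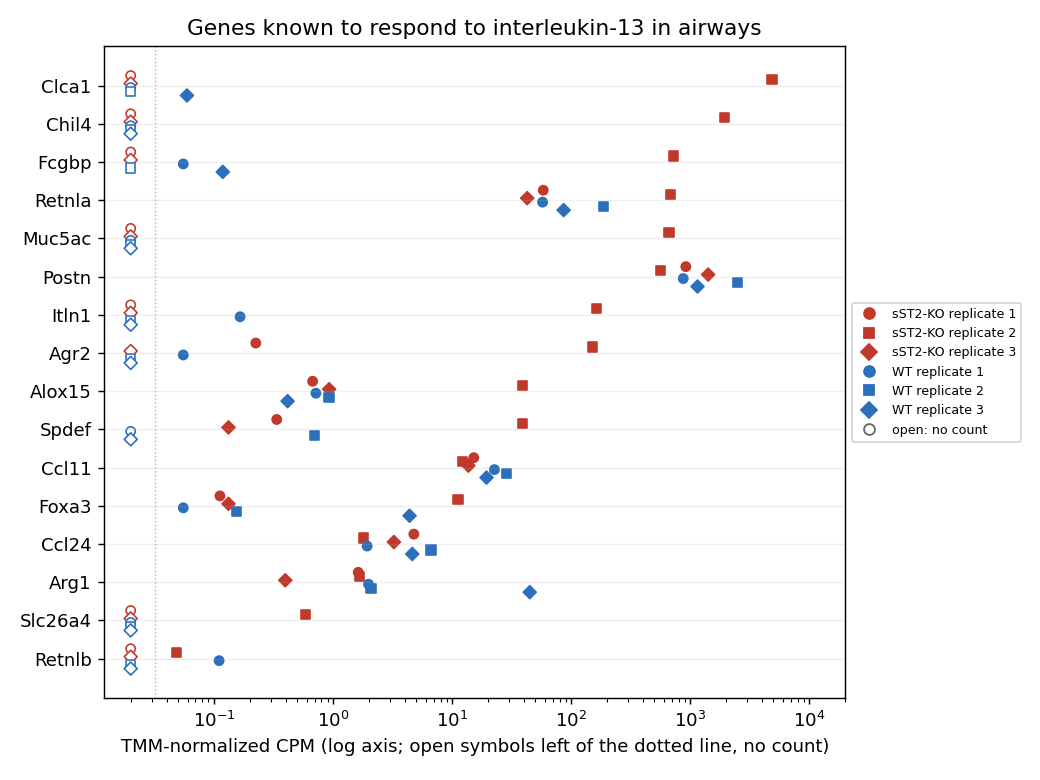
Level of 16 genes known to respond to interleukin-13 in airways (TMM-normalized CPM, log axis) in the 3 sST2-KO libraries (red) and the 3 WT libraries (blue), with open symbols at the left for a count of 0. The epithelial genes from Clca1 (4858 CPM) to Spdef (38.9 CPM) are highest in sST2-KO replicate 2, while Postn and Ccl11 are lowest there.

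The named protein-coding genes most like the 10 were those with the highest CPM among genes peculiar to sST2-KO replicate 2. They were Reg3g, Cbr2, Cyp2f2, Cyp2a5, Chil4, Aldh1a1 (a retinaldehyde dehydrogenase, 1848 CPM), Wfdc2, A2ml1 (a protease inhibitor, 1422 CPM), Gsto1 (a glutathione transferase, 1230 CPM) and Cd24a (a surface glycoprotein, 858 CPM). Pearson's r with the mean log2(CPM + 1) of the 10 genes over 6 libraries was 0.953 for Cd24a to 0.998 for Cyp2a5, and it rests on 1 library. Their levels elsewhere differed. Aldh1a1 had 46.6 to 76.3 CPM, Gsto1 26.6 to 46.9 CPM and Cbr2 120 to 181 CPM in the other 5 libraries, whereas Reg3g, Cyp2a5, Chil4 and A2ml1 had at most 1.13 CPM there.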

How the data were processed

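Bulk RNA sequencing of mouse aorta was analysed in 6 libraries, 3 labelled sST2-KO and 3 WT, grouped by sample title. TRI Reagent, poly-T bead selection and random hexamer priming were used, per the labels' protocols. The authors' deposited values are raw, unscaled counts for each Ensembl gene; genome build mm39 is from the submitters' processing notes. The sources used here name no aligner, counter, strand setting or annotation version, so reads of near-identical copies cannot be told apart. The deposited gene length, a value in bases, gave FPKM.

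The 10 genes and all gene lists were chosen with earlier results of these data known. Counts were fitted with edgeR 4.0.16 in R 4.3.3 (filterByExpr with minimum count 10 and minimum total 15, TMM, glmQLFit, glmQLFTest, Benjamini-Hochberg over all genes tested, threshold 0.05), without sST2-KO replicate 2 and with all 6 libraries. The SE is the log2 change divided by the square root of F, without its sign. Levels use TMM factors of the tested genes on total counts. Scripts were tested on simulated data. DESeq2 1.42.0, limma 3.58.1 (voom), 2 other scalings, other filters, protein-coding genes alone, fits that left out 1 library each and a replicate block were alternatives. Intervals are exact at 95% (scipy 1.17.1); plots used matplotlib 3.10.9. Named genes were the 10; Scgb, Bpif, Clca and mucin genes over 1 CPM in any library; up to 4 genes per list with the highest CPM in sST2-KO replicate 2 and defining genes at 0; the tested neutrophil genes; and the 10 most abundant named protein-coding genes peculiar to that library. Other genes are marked as picked once their values were known.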

Additional observations from a re-analysis of the deposited data

How the results depend on the processing

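Without sST2-KO replicate 2, edgeR called 1 gene; DESeq2 called 439, limma-voom 0, edgeR with no filter on low counts 415, with a minimum count of 50 it called 0, on protein-coding genes alone 0, and leaving out each library gave 0 to 112, the highest without WT replicate 2. With all 6 libraries edgeR called 0, DESeq2 291, and leaving out each library gave 0 to 1. Correlations of deviations from the group mean between same-numbered libraries were 0.145, 0.0461 and -0.0866 over 16377 genes. The group means include the libraries that stood apart, so these values cannot show whether the replicate numbers pair the samples. The replicate block called 104 genes in the 5-library comparison, where WT replicate 2 had no same-numbered partner, and 0 in that of 6. The cause of these differences was not tested.

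For the 7 tested genes, 78 of 82 alternative log2 changes kept direction, though their size varied. The lowest adjusted p was 0.148 (DESeq2, Bpifb1), and DESeq2 gave none for Scgb3a1, Muc5b and Epcam. The log2 change of Scgb3a1 turned positive with limma-voom (0.10), with the replicate block (0.73) and without WT replicate 2 (0.62), and that of Ltf without WT replicate 3 (1.22); leaving out each library gave -1.12 to 0.62 for Scgb3a1 and -6.75 to 1.22 for Ltf. It gave -2.37 to -0.92 for Scgb1a1 and -3.21 to -1.24 for Bpifa1. Bpifb1 did not pass the filter on low counts without WT replicate 2 or WT replicate 3. Epcam did not pass without WT replicate 1 or WT replicate 3, nor Muc5b without WT replicate 2. The fits left gave -8.05 to -2.40 for Bpifb1, -2.76 to -1.11 for Epcam and 0.025 to 2.04 for Muc5b. Whether their directions rest on the libraries named could not be checked. The replicate block gave -0.20 for Scgb1a1 and -0.51 for Bpifa1. The summed level in sST2-KO replicate 2, 47780 CPM, was 55040 CPM on total counts and 46540 CPM with upper-quartile scaling; the mean of the other 5, 18.5 CPM, was 13.5 to 22.6 CPM on leaving out each. In sST2-KO replicate 2, Scgb1a1 ranked 2 in CPM, which is not scaled by length, and 1 in FPKM. With 1 to 11 counts in some libraries, differences of the mucins and Epcam outside sST2-KO replicate 2 were not resolved at this depth.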

Other observations

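Markers of rarer airway cells and of further neighbouring tissues were also compared with the 10 genes. In sST2-KO replicate 2 the ionocyte, tuft and neuroendocrine list had 1 of 12 genes more than 2 above every other library in log2(CPM + 1), with a summed 61.8 CPM against 22.4 to 46.3 CPM. Trpm5, a channel of tuft cells, reached 10.3 CPM, against at most 0.618 CPM in the other 5, and Il25, the tuft cell cytokine, had no count there. The oesophagus list had 1 of 10, the keratin gene Krt4, with 16.7 CPM against at most 0.225 CPM, and Krt6b, Sprr3 and Krtdap had no count. The thymus epithelium list had 1 of 6, Tbata, with 20.6 CPM against at most 0.0562 CPM, and Psmb11, the thymus-specific proteasome subunit, had no count. The salivary genes Bpifa2, Prol1, Smr3a, Smgc and Cst10 had no count in sST2-KO replicate 2.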
